A study of Mus musculus with 5 samples.

Results

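Mitochondrial ribosomal proteins were followed in the embryonic mouse lens as all gene symbols of the count table that begin with Mrpl or Mrps and a digit. The rule uses names alone and found 76 of 12370 genes, 48 named for the large subunit (Mrpl) and 28 for the small subunit (Mrps). All 76 passed the filter on low counts and were tested. RNA from lenses at embryonic day 14 was sequenced in 3 control and 2 N-myc knockout libraries. Both groups carried loxP-flanked N-myc alleles on both chromosomes. The controls lacked Cre. For some controls the labels add loxP-flanked c-myc alleles, but not for which library. The knockouts carried in addition 1 copy of Mlr10-Cre, a transgene that expresses Cre recombinase in the lens, so the transgene and the deletion cannot be told apart. Lysates of single animals were pooled before RNA purification, so p-values measure the spread between pools. The size of a pool and the strain are not stated in the labels.

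The mitochondrial ribosome translates the few messenger RNAs made from mitochondrial DNA, all of which encode subunits of oxidative phosphorylation. Its RNA is made in the organelle, but all its proteins are encoded in the nucleus and imported. Some of them descend from proteins of the bacterial ribosome, and others were added in mitochondria and have no bacterial counterpart. Names in brackets after a gene (uL15m, mS26) are those of the universal ribosomal protein nomenclature, with u for all domains of life, b for bacterial and m for mitochondrial proteins. MYC proteins are known as activators of ribosome production and of nuclear genes for mitochondria in other tissues, and lens fibre cells lose their mitochondria as they mature.

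Each library held 13162384 to 13746416 counts. Mycn, the gene deleted in the knockouts, was 2.16-fold lower (log2 -1.11, SE 0.15, edgeR adjusted p = 0.0097), with 1848 to 2066 counts per control library against 801 and 1141 counts in the knockouts. Markers of other tissues differed between the libraries. The summed level of 9 of 9 mesenchyme markers was 149 to 431 counts per scaled library total (CPM) in the controls and 1819 and 328 CPM in knockout replicates 1 and 2, that of 8 of 9 retina markers 60.7 to 63.8 and then 94.9 and 203 CPM, and that of 6 of 6 skeletal muscle markers 10.5 to 52.2 and then 391 and 14.8 CPM. For 11 of 11 lens fibre markers the sums were 97063 to 118910 and then 87694 and 102549 CPM. Those for 6 of 6 lens epithelium markers were 2321 to 2485 and then 2091 and 2149 CPM. Of these markers 4 for mesenchyme and 7 for retina were higher, and 5 for lens fibres and 1 for lens epithelium were lower. For muscle 0 were called (5 at an unadjusted edgeR p under 0.05). The sums for 6 endothelial markers were 202 to 246 CPM in controls against 209 and 217 CPM in knockouts. Of 5 macrophage markers 3 were in the table, and their sums in the knockouts lay within the range of the controls. All 3 had a log2 fold change above 0, with 0 called and 2 at an unadjusted edgeR p under 0.05. None of these markers was at 0 counts throughout. Of 7 red blood cell markers 6 were in the table, where Hba-a1, Hba-a2, Hbb-bs and Hbb-bt had under 10 counts in every library and 3 were at 0 throughout. Knockout replicate 1, with the most mesenchyme and muscle RNA, was also the lower of the knockout libraries in 59 of the 76 genes, and the part of these markers in the results was not tested. Without knockout replicate 1 the median log2 fold change was -0.20 for the large and -0.20 for the small subunit.

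Of the 76 genes, 8 were lower and 0 higher in the knockout lenses (edgeR quasi-likelihood test, adjusted p under 0.05), 5 of 48 for the large and 3 of 28 for the small subunit. That is 10.5% of the group, against 8.51% of all 12035 genes tested that were lower and 7.98% that were higher, so the count of lower calls lay near the background. At an unadjusted p under 0.05 there were 21 of 76 (27.6%), all of them lower. Over all genes 35.8% (4311) had such a p in either direction. The share of all genes in the lower direction alone was not counted, so the 2 shares cannot be ranked. DESeq2 and limma-voom called 10 and 7 lower and 0 higher. The direction was more uniform than the calls: 71 of 76 genes had a log2 fold change (knockout minus control) below 0, or 93.4%, against 49.8% of all tested genes. A shared direction was also seen among the controls. Below the mean of the controls lay 67 of the 76 genes in control replicate 1 and 8 in control replicate 2. In knockout replicates 1 and 2 these were 70 and 67 genes. In 37 genes both knockout libraries lay below all 3 controls, or 48.7% of the group against 27% of all genes, and in 0 genes did both lie above them, against 25.5%. The median log2 fold change was -0.29, with quartiles of -0.41 and -0.17, against a median of 0.00 over all genes. In bulk RNA, fewer cells of a type and less RNA per cell cannot be told apart.

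The 8 calls depended on which libraries entered the fit. With control replicate 2, control replicate 3 or knockout replicate 1 left out, 0 of the 76 genes passed the edgeR test, with 12, 17 and 13 genes at an unadjusted p under 0.05. Without control replicate 2 and control replicate 3 those are 15.8% and 22.4% of the group. The shares of all genes, 26.3% and 27.1%, count both directions and are no like background for a group that lay mostly below 0. In the same fits 65, 70 and 67 of the 76 fold changes were below 0. The calls over all genes also dropped, from 1984 to 38, 237 and 292.

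**Figure D1:**
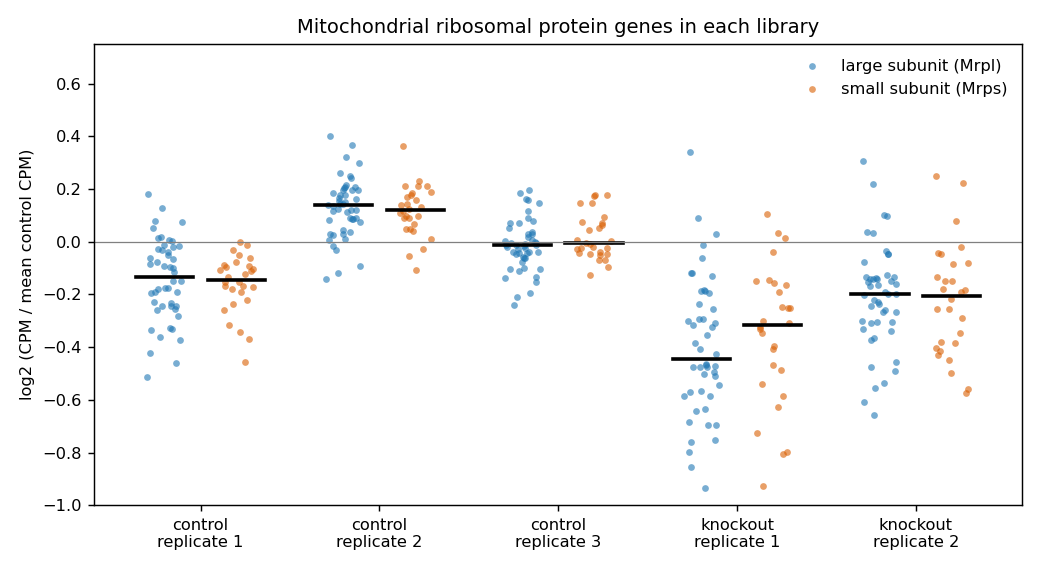
Each point is a mitochondrial ribosomal protein gene in a library, on the log2 scale of its CPM over the mean of the 3 controls; black bars are medians of the 48 large-subunit (blue) and 28 small-subunit (orange) genes. The knockout medians lie below those of all controls, with control replicate 1 (-0.13 and -0.14) closest to knockout replicate 2 (-0.20 in both subunits).

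The libraries differed among themselves as well as between groups. Levels are given as CPM, the count divided by the scaled library total. Relative to the control mean, the median log2 ratio over the 76 genes was -0.14, 0.13 and -0.01 in the control libraries, against -0.37 and -0.20 in the knockout libraries. Both knockout medians were below every control median, but knockout replicate 2 was closer to control replicate 1 than control replicate 1 was to control replicate 2. Summed over the 48 large-subunit genes, the level was 890, 1071 and 974 CPM in controls against 736 and 845 CPM in knockouts. For the 28 small-subunit genes the sums were 416, 492 and 462 CPM against 369 and 387 CPM. Neither pair of sums overlapped between groups.

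The large and small subunits had median log2 fold changes of -0.30 and -0.25, and 45 of 48 and 26 of 28 genes were below 0. The quartiles, -0.41 and -0.17 for the large and -0.40 and -0.16 for the small subunit, nearly coincided, and the difference between the subunits was not tested. The mean log2 level of the large-subunit genes relative to that of the small-subunit genes, with each gene centred on its control mean, was 0.01, 0.01 and -0.03 for the controls against -0.06 and 0.01 for the knockouts. Knockout replicate 1 was thus the lowest and knockout replicate 2 lay within the controls. The symbols do not follow the structure in every case: in the mitochondrial ribosomes of pig and human, Mrps30 (mL65) and Mrps18a (mL66) sit in the large subunit. With these 2 moved, 5 of 50 large-subunit and 3 of 26 small-subunit genes were lower and the medians stayed at -0.30 and -0.25.

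**Figure D2:**
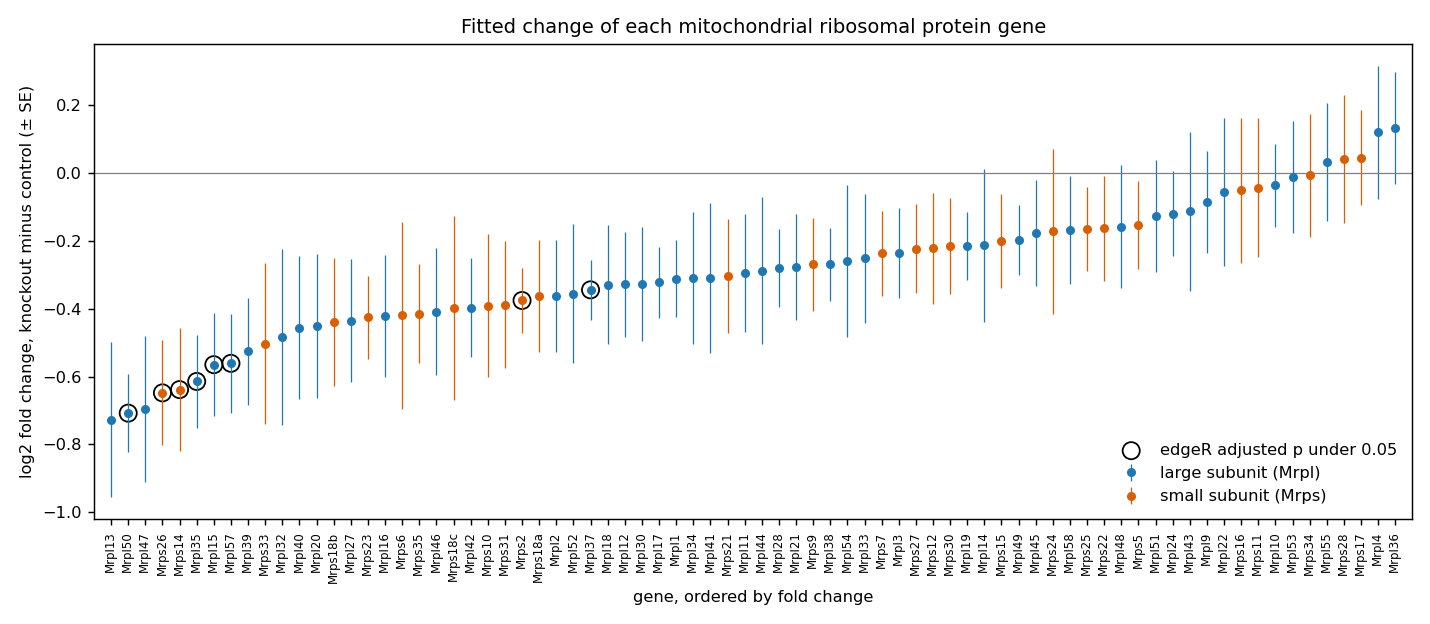
Fitted log2 fold change (knockout minus control, bars ± SE) of the 76 genes in rising order, blue for the large and orange for the small subunit, with the 8 genes that passed the edgeR test circled. The 2 subunits are mixed along the whole range, from -0.73 (Mrpl13) to 0.13 (Mrpl36).

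Among large-subunit genes the smallest adjusted p was that of Mrpl50 (mL50, a protein with no bacterial counterpart; chromosome 4, 49512596 to 49521093, GRCm38). Mrpl50 was at 45.5, 54.9 and 55.2 CPM in controls against 30.6 and 32.9 CPM in knockouts. Both knockout values were well below the lowest control. It fell 1.63-fold, from 51.8 ± 5.52 (SD, n = 3) to 31.7 ± 1.57 CPM (SD, n = 2). On the log2 scale that was -0.71 (SE 0.12, edgeR adjusted p = 0.013). Mrpl35 (bL35m, of bacterial descent) was at 17.6, 17.8 and 16.8 CPM in controls against 10.7 and 12.0 CPM in knockouts, and fell 1.53-fold (log2 -0.61, SE 0.14, edgeR adjusted p = 0.028). The groups were far apart relative to the spread within each.

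Mrpl57 (mL63) and Mrpl15 (uL15m, the counterpart of a core protein of the bacterial large subunit) followed. Mrpl57 was at 14.2, 16.7 and 15.3 CPM in controls against 10.4 and 10.5 CPM in knockouts, a 1.48-fold fall (edgeR adjusted p = 0.040). Mrpl15 was at 28.8, 33.9 and 29.4 CPM against 17.7 and 23.9 CPM, a 1.48-fold fall (edgeR adjusted p = 0.043). Its knockout values differed more from each other than its controls did, with knockout replicate 1 the lower. Mrpl37 (mL37) was at 45.2, 46.9 and 47.4 CPM in controls against 35.6 and 37.7 CPM in knockouts. Its 1.27-fold fall (edgeR adjusted p = 0.040) was the smallest of the 8, between groups with an SD of 1.15 CPM in controls and 1.43 CPM in knockouts.

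In the small subunit, Mrps26 (mS26, without a bacterial counterpart; chromosome 2, 130563742 to 130568695, GRCm38) was at 17.1, 21.0 and 17.3 CPM in controls against 11.2 and 12.4 CPM in knockouts. It fell 1.57-fold, from 18.5 ± 2.21 (SD, n = 3) to 11.8 ± 0.881 CPM (SD, n = 2). On the log2 scale that was -0.65 (SE 0.15, edgeR adjusted p = 0.032). The groups did not overlap. Mrps2 (uS2m), which has a bacterial counterpart in the small subunit, was at 41.2, 42.5 and 40.1 CPM against 33.3 and 30.3 CPM, a 1.30-fold fall (edgeR adjusted p = 0.039). Mrps14 (uS14m) was at 14.1, 17.5 and 19.1 CPM in controls against 9.73 and 12.0 CPM in knockouts, a 1.56-fold fall (edgeR adjusted p = 0.049). Its lowest control and its higher knockout value were close to each other.

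**Figure D3:**
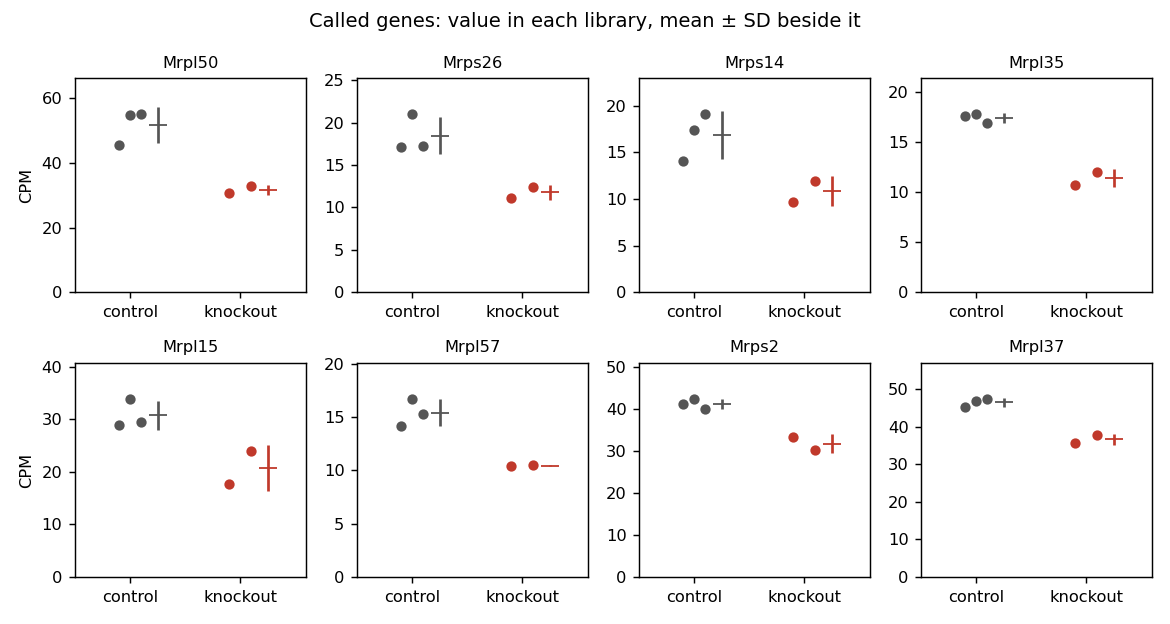
CPM of the 8 genes that passed the edgeR test, in each of 3 control (grey) and 2 knockout (red) libraries, with mean ± SD beside the points and axes that start at 0. In all 8 the knockout values lie below every control value, with the narrowest gap in Mrps14 (12.0 against 14.1 CPM).

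Some of the lowest fold changes did not pass the test. Mrpl13 (uL13m) had the lowest, at -0.73 on the log2 scale (SE 0.23, edgeR adjusted p = 0.062), and 330 bases of its exons overlap Mtbp on the opposite strand. Its controls spread from 23.1 to 40.9 CPM, with knockout values of 17.1 and 20.3 CPM. Mrpl47 (uL29m), at 7.13, 8.80 and 8.27 CPM against 4.22 and 5.74 CPM, had -0.70 (SE 0.22, edgeR adjusted p = 0.060). Its exons overlap Actl6a and Ndufb5 on the opposite strand by 1068 bases in all. Mrps33 (mS33) had -0.50 (SE 0.24, edgeR adjusted p = 0.17). In these 3 genes, too, both knockout libraries were below all controls. Over 13 alternatives the adjusted p ran from 0.022 (DESeq2) to 0.27 for Mrpl13 and from 0.031 (edgeR without knockout replicate 2) to 0.30 for Mrpl47.

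At the other end, 5 genes had a fold change above 0. They were Mrpl36 (bL36m, log2 0.13, SE 0.16), Mrpl4 (uL4m, 0.12, SE 0.20), Mrps17 (uS17m, 0.05, SE 0.14), Mrps28 (bS1m, 0.04, SE 0.19) and Mrpl55 (bL31m, 0.03, SE 0.17). Each estimate was smaller than its SE and the groups overlapped in all 5. Mrps34 (mS34) lay next to them, at 11.7, 16.1 and 16.7 CPM against 15.2 and 14.3 CPM (log2 -0.01, SE 0.18). Its exons overlap Mapk8ip3 and Nme3 by 2072 bases in all. The 5 genes above 0 all encode proteins named for a bacterial counterpart: 40 of those 45 genes and 31 of the 31 genes for mitochondria-specific proteins had a fold change below 0. The classes follow the letters u, b and m of the names. Mrps18a (mL66) and Mrps18b (mS40) thus count as mitochondria-specific, though they are paralogs of Mrps18c (bS18m). The medians of these classes were -0.28 and -0.31, and 4 genes of each passed the test (8.89% and 12.9%, against 8.51% of all tested genes that were lower). With length and GC trends removed 34 of the 45 and 27 of the 31 were below 0. In that fit 0 of the 45 and 4 of the 31 were lower, against 5.83% of all tested genes. The difference between the classes was not tested.

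Genes for 3 parts of the large subunit with known places are taken next. The stalk recruits translation factors. Its genes Mrpl10 (uL10m), Mrpl11 (uL11m) and Mrpl12 (bL12m) had log2 fold changes of -0.04, -0.29 and -0.33, with overlap of the groups in all 3. Mrpl12 was at 21.2, 26.8 and 23.8 CPM in controls against 16.8 and 21.3 CPM in knockouts. Around the exit of the peptide tunnel, Mrpl17, Mrpl22, Mrpl24 and Mrpl45 were listed and had a median of -0.15. Mrpl45 (mL45), which tethers the ribosome to the inner membrane in pig and human, had -0.18 (SE 0.16). For the central protuberance, a crest of the large subunit, 6 genes were listed (Mrpl18, Mrpl27, Mrpl38, Mrpl40, Mrpl46 and Mrpl48). They had a median of -0.37. Of these 13 genes 0 passed with edgeR, DESeq2 or limma-voom, and 3 (1 at the exit and 2 in the protuberance) had an unadjusted edgeR p under 0.05. With length and GC trends removed 1 of them passed with edgeR, Mrpl38 of the protuberance. The 3 lists are selections and not complete. Their medians would move if members left out of them were counted, such as Mrpl47 (-0.70), Mrpl55 (0.03) or Mrpl58 (mL62, -0.17).

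The 3 Mrps18 paralogs encode related proteins that occupy different sites. Mrps18b (mS40) and Mrps18c (bS18m) belong to the small subunit and Mrps18a to the large. Mrps18a was at 14.4, 18.6 and 14.5 CPM in controls against 12.7 and 12.0 CPM in knockouts. Mrps18b was at 7.21, 8.58 and 8.27 CPM against 6.37 and 5.45 CPM, and Mrps18c at 5.10, 6.60 and 6.30 CPM against 3.44 and 5.67 CPM. The groups overlapped for Mrps18c only. Their log2 fold changes of -0.36 (SE 0.16), -0.44 (SE 0.19) and -0.40 (SE 0.27) did not pass the test. Mrps30 had -0.21 (SE 0.14).

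Control levels of the 76 genes ran from 4.74 to 51.8 CPM with a median of 16.9 CPM. On the scale of CPM per kb of the annotated principal transcript, the control level was highest for Mrpl42 (mL42, 34.6) and Mrpl52 (mL52, 34.5) in the large and for Mrps21 (bS21m, 23.9) and Mrps15 (uS15m, 23.3) in the small subunit. The 2 leading genes of each subunit were within 1 CPM per kb of each other. In the knockouts these levels were 26.3, 27.0, 19.4 and 20.3 CPM per kb, and none of the 4 genes passed the test. Levels per kb depend on where the annotated transcript ends.

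Positions and promoters are features that the choice by name did not use. The 76 genes lie on 17 chromosomes, with at most 11 on the same chromosome (chromosome 11). For 26 of 76, or 34.2%, another protein-coding gene starts on the opposite strand within 1000 bases upstream or with an overlap of up to 500 bases, against 15.2% of all tested genes. For 23 of the 26 the partner was tested and is no member. The partners had a median log2 fold change of -0.06, with 14 of 23 below 0, 1 lower and 0 higher, and the 23 members beside them had a median of -0.31. Mrpl50 starts 83 bases from Zfp189, a zinc finger gene with a log2 fold change of 0.25 (edgeR adjusted p = 0.33). Mrps27 was beside the lower partner, Ptcd2, which had -0.43 (edgeR adjusted p = 0.030) against -0.22 for Mrps27 itself. Mrpl46 and Mrps11 start from the same region in opposite directions and had log2 fold changes of -0.41 (SE 0.19) and -0.04 (SE 0.21).

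Promoter windows from 250 bases before to 50 bases after the annotated start (RefSeq, GRCm38.p6) were found for 67 of the 76 genes. The MYC-binding E-box CACGTG was in 5 of 67, or 7.46%, against 12% of 9319 tested genes with a window. The motif CCGGAAG, the core of ETS factor sites including those of GABPA, was in 26 of 67, or 38.8%, against 20.7%. AAGATGG, part of the YY1 site, was in 13 of 67 (19.4% against 8.64%), and GCGCATG, part of the site of nuclear respiratory factor 1, in 8 of 67 (11.9% against 8.24%). Both strands were searched, no matches of different motifs overlapped in the members, and a match shows letters and no binding. Shown here are 4 of the 7 called genes with a window, as examples of what these windows do and do not hold: Mrpl37 is the only called gene with an E-box, and Mrpl50 has the smallest adjusted p and none of the motifs. Each is given from its 5′ end in the direction of the gene, with every match to a motif in capitals.
Mrpl50 (chr4:49521034-49521333, minus strand): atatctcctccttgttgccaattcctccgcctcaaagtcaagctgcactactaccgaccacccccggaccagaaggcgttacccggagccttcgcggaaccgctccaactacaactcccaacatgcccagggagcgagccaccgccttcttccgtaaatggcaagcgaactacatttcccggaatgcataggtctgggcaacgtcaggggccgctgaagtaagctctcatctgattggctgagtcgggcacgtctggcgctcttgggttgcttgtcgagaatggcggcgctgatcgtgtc
Mrpl37 (chr4:107066817-107067116, minus strand): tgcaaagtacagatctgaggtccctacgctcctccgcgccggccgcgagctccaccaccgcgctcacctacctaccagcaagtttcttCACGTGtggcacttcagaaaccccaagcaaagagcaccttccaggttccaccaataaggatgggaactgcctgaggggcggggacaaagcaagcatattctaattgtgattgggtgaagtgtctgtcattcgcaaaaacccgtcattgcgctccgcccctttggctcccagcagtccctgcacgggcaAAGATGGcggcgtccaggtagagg
Mrpl35 (chr6:71823735-71824034, minus strand): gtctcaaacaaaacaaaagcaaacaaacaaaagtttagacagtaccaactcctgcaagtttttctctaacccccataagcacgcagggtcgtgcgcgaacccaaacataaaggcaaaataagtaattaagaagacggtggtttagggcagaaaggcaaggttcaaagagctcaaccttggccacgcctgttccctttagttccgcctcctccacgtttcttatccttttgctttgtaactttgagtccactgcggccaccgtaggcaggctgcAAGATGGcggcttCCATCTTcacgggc
Mrps26 (chr2:130563507-130563806, plus strand): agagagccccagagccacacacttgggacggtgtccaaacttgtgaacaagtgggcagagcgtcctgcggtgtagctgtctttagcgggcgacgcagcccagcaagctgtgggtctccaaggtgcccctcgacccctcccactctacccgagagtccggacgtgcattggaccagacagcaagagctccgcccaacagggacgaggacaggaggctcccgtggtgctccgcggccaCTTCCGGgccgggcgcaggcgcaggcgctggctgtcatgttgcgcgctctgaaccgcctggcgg
The Mrpl37 window holds an E-box 162 bases before the start and AAGATGG after it. The Mrpl35 window has AAGATGG and its reverse complement CCATCTT just past the start. The Mrps26 window has CTTCCGG, the reverse complement of CCGGAAG, 14 bases before the start. Of the 5 members with an E-box, Mrpl37 fell, and Mrpl2 (-0.36), Mrpl20 (-0.45), Mrps18c (-0.40) and Mrpl36 (0.13) did not pass the test.

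Fold changes followed the GC content of transcripts across all genes, and the group was read against it. Among all genes the median log2 fold change rose from -0.24 in the lowest quintile of GC content (31.0% to 43.9%) to 0.26 in the highest (55.5% to 78.9%). The members of the same quintiles had medians of -0.48 (n = 13), -0.23 (n = 17), -0.25 (n = 16), -0.29 (n = 19) and -0.26 (n = 11), each below that of all genes in its quintile. In the lowest quintile 5 of 13 members were lower, against 21.0% of all its genes, and in the highest 0 of 11, against 1.99%. The members' median GC content of 49.8% was close to the 49.7% of all genes. After removal of trends with GC content and length within each library, 4 of 76 genes were lower and 0 higher, against backgrounds of 5.83% and 4.17%. These were Mrpl37, Mrpl38, Mrpl50 and Mrps26. The medians were then -0.16 for the large and -0.13 for the small subunit, against 0.02 for all genes, and 61 of 76 fold changes were below 0.

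**Figure D4:**
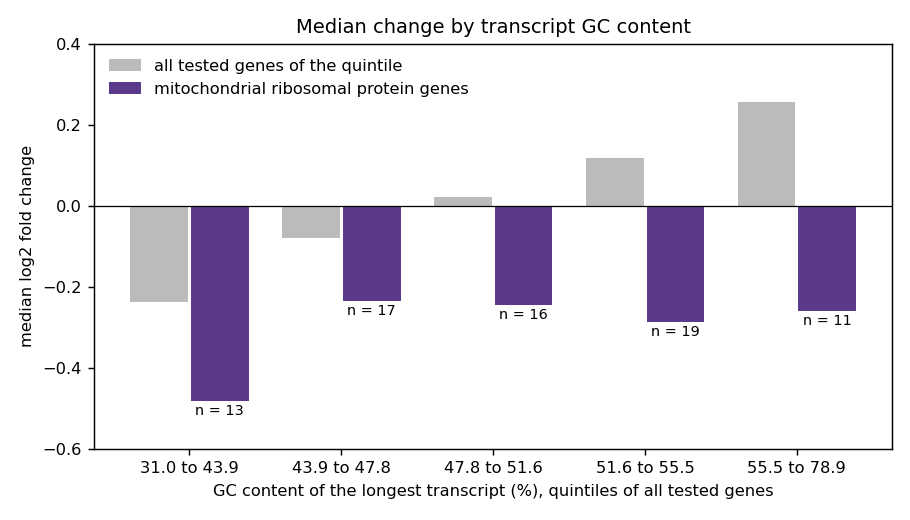
Median log2 fold change (bars, from 0) by quintile of transcript GC content, for all tested genes (grey) and for the mitochondrial ribosomal protein genes (purple, with their number). The grey bars climb from -0.24 to 0.26, whereas the purple bars are below 0 in every quintile and lowest (-0.48) in the first.

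The 5 further subunits of this ribosome that were tested carry other names. Ptcd3 (mS39), a pentatricopeptide protein of the small subunit, was at 151.7, 144.5 and 159.9 CPM in controls against 71.6 and 98.4 CPM in knockouts. It fell 1.79-fold (log2 -0.84, SE 0.13, edgeR adjusted p = 0.013), with knockout replicate 1 the lower. Chchd1 (mS37) was at 15.8, 27.1 and 20.6 CPM against 8.87 and 14.2 CPM, but with its wide spread did not pass (log2 -0.87, SE 0.27, edgeR adjusted p = 0.060). Aurkaip1 (mS38), Gadd45gip1 (mL64) and Dap3 (mS29), which binds GTP, had log2 fold changes of -0.37 (SE 0.18), -0.28 (SE 0.15) and -0.24 (SE 0.098), and did not pass.

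Factors that build or serve the ribosome gave 4 lower genes in 3 lists and 0 in another, and with length and GC trends removed 0 in all 4 lists. The lower genes made up 7.69% of assembly and modification factors, 6.67% of translation factors and 5% of synthetase genes, against 8.51% of all tested genes. Lower calls were thus no more frequent in these lists than over all genes. Of 26 assembly and ribosomal RNA modification factors, 2 were lower, 0 higher, and 15 had a fold change below 0 (median -0.12). Mtg1, a GTPase of large-subunit assembly, fell 1.62-fold from 12.8 ± 1.09 to 7.92 ± 1.28 CPM (edgeR adjusted p = 0.036), and Noa1, another GTPase of assembly, fell 1.44-fold (edgeR adjusted p = 0.046). Of 15 translation factors, 1 was lower, Mtif2, the initiation factor that places the first tRNA (1.26-fold, edgeR adjusted p = 0.045), with 13 of 15 below 0. Of 20 genes for mitochondrial tRNA synthetases and amidotransferase subunits, 1 was lower, Rars2 for arginine (1.38-fold, edgeR adjusted p = 0.040), with 12 below 0. Of 12 genes for mitochondrial DNA maintenance and transcription 0 passed with edgeR, DESeq2 or limma-voom, with 2 at an unadjusted edgeR p under 0.05 and a median of -0.01. Without knockout replicate 2, 2 of the 12 were lower. Tfam, which packs mitochondrial DNA, had -0.22 (SE 0.11), and Polg, its polymerase, 0.19 (SE 0.12). Mtif2 missed the threshold with DESeq2 and limma-voom, and Noa1 with limma-voom (adjusted p = 0.052). Lists came from textbook knowledge, and differences between them were not tested.

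Genes for 15 abundant mitochondrial proteins were taken (carriers, channels, import and inner membrane proteins and the matrix enzyme citrate synthase). Of these 8 were lower (53.3%, against 8.51% of all tested genes). Among the 15, 0 were higher and all had a fold change below 0. With length and GC trends removed 4 of them were lower and their median was -0.14, and with library totals as scale 4 were lower. Slc25a5, an ADP/ATP carrier, fell 1.47-fold from 99.3 ± 3.89 to 67.8 ± 7.51 CPM (edgeR adjusted p = 0.015), and the import receptors Tomm70a and Tomm20 fell 1.45-fold and 1.36-fold. The median of the list was -0.28, at control levels of up to 234.2 CPM for the called genes. Of 7 regulators of mitochondrial gene expression, 1 was lower and 1 higher (14.3% each, against 8.51% and 7.98% of all tested genes). The median of the 7 was 0.13, and -0.12 with length and GC trends removed. Gabpa fell 1.26-fold, from 83.9 ± 5.24 to 66.5 ± 5.13 CPM (edgeR adjusted p = 0.045). Nrf1 rose 1.25-fold, from 36.1 ± 1.33 to 45.3 ± 2.25 CPM (edgeR adjusted p = 0.048). Nrf1 did not pass with DESeq2, neither gene with limma-voom, and Gabpa did not with length and GC trends removed (edgeR adjusted p = 0.25). For cytosolic ribosomal proteins 27 of 65 tested genes were lower (41.5%), with medians of -0.52 for Rpl and -0.56 for Rps genes. The quartiles of the mitochondrial group (-0.41 and -0.17) and of the cytosolic group (-0.63 and -0.39) overlapped slightly, and the difference between the groups was not tested. Without control replicate 2, control replicate 3 or knockout replicate 1 there were 0 lower genes among the 15 and 0, 1 and 1 lower among the cytosolic genes. Of the called genes outside the Mrpl and Mrps symbols, Ptcd3, Mtg1, Noa1, Mtif2, Rars2, Slc25a5, Tomm70a, Tomm20, Gabpa and Nrf1 all missed the threshold without control replicate 2, where Ptcd3 had an adjusted p of 0.060 with edgeR.

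**Figure D5:**
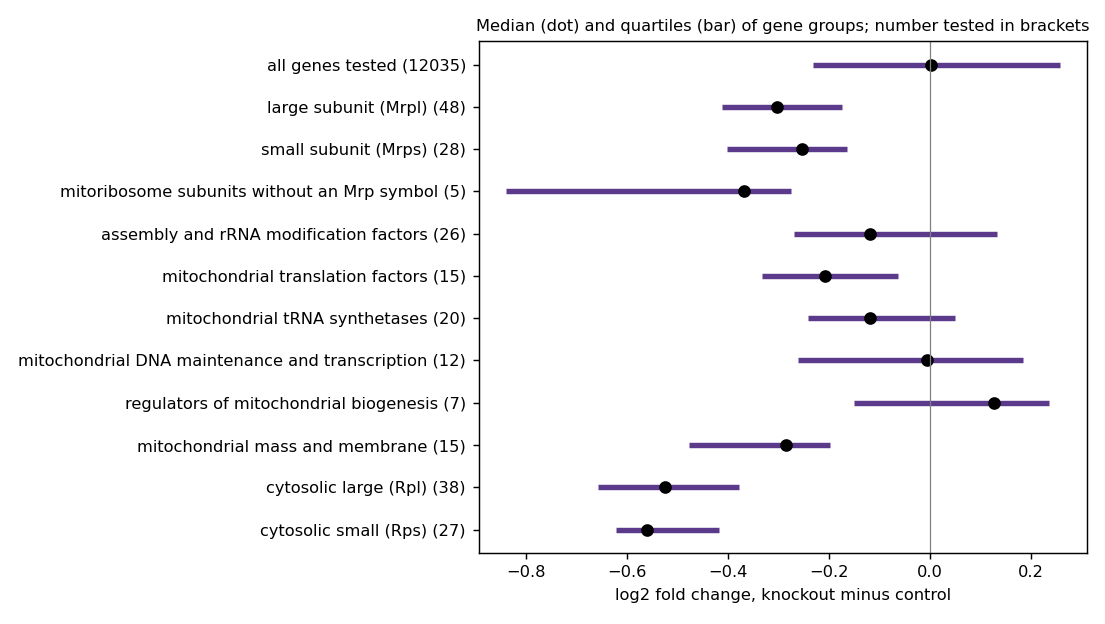
Median (dot) and quartiles (bar) of the log2 fold change, knockout minus control, of each gene group, with the number of tested genes in brackets. The mitochondrial ribosomal groups (-0.30 and -0.25) lie between all genes (0.00) and the cytosolic ribosomal proteins (-0.52 and -0.56), and the quartiles for assembly factors, tRNA synthetases, mitochondrial DNA and regulators of biogenesis reach across 0.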

How the data were processed

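The authors deposited raw counts per gene symbol for 5 libraries, per the file headers. Per the submitters' processing notes the build was mm10 and the tools included HTSeq 0.6.1, TopHat2 2.0.13, Trim Galore 0.3.7, DESeq2 and Cufflinks 2.2.1, whose roles the notes used here leave unsaid. Neither annotation nor strand setting is stated in these sources. Exons of 31 members overlap another gene (28 on the opposite strand), so reads there cannot be assigned with certainty, and pseudogene copies can take reads.

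Genes were kept with filterByExpr (minimum count 10) and tested in R 4.3.3 with edgeR 4.0.16 (TMM, glmQLFit and glmQLFTest, no covariate, Benjamini-Hochberg over 12035 genes, threshold 0.05). CPM uses TMM-scaled totals. SE is the log2 fold change over the square root of F. Positions, lengths and GC content came from GENCODE vM21 (GRCm38) by symbol, known for 98.1% of tested genes. Alternatives used DESeq2 1.42.0 and limma 3.58.1, other scalings, no filter, left-out libraries, a replicate block and length and GC offsets. On simulated data (200 of 12035 genes changed), edgeR recovered 32.2% of 1.5-fold and 72.8% of 2-fold changes, and made 13.8 false calls on average. Far fewer genes changed there than the 1984 called in the data, so these rates need not hold for the data. Libraries of a group differed beyond sampling noise (chi-square over degrees of freedom 9.98 to 23.4). Named genes were, per subunit, the called genes, the 3 highest and 3 lowest fold changes and the 2 highest levels per kb. Added were Mrps18 paralogs, Mrps30, other subunits, up to 3 called genes of other lists and Mycn. Genes listed for the stalk, tunnel exit and central protuberance, Mrpl58, E-box genes and divergent partners were named after their values were seen. The members and lists were chosen with earlier results of these data known.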

Additional observations from a re-analysis of the deposited data

How the results depend on the processing

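The count of 8 lower genes (5 large, 3 small) became 3 (2 and 1) when only library totals set the scale, which moved the median of all genes to 0.09, and 4 (3 and 1) with length and GC trends removed. With the replicate block it was 4 (3 and 1), and 0 with the block and the trends removed. Numbers shared between groups do not pair the libraries (correlations of deviations -0.07 and 0.04). With 1 library left out the counts ran from 0 to 10 in all, 0 to 7 in the large and 0 to 3 in the small subunit. No member was higher in any of the 13 alternatives, in which 61 to 71 of 76 fold changes were below 0. The median was -0.16 for Mrpl genes with the trends removed and -0.11 for Mrps genes with block and trends, and with 1 library left out it ran from -0.45 to -0.20 for Mrpl genes. Calls over all genes went from 1984 to 1204 with the trends removed, 995 with the replicate block, 292 with both, and 38 to 2717 with 1 library left out. Assignment of subunits by structure changed no count or median beyond its spread. Under the other alternatives (DESeq2 size factors, no filter, DESeq2, limma-voom) counts of lower members stayed between 7 and 10. With the replicate block 4 of the 15 abundant mitochondrial proteins were lower, and with block and trends 0 of these 15 and 11 of the cytosolic ribosomal proteins. The causes of these changes were not tested.

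Among the named genes, signs turned in 8. Mrpl4 was at -0.0021 with the trends removed and -0.016 with block and trends, and Mrps30 at 0.063 and 0.0084, Polg at -0.0100 and -0.052. Mrps34 was at 0.077 with library totals, 0.0080 with limma-voom and 0.10 with the replicate block. With 1 library left out the ranges were -0.063 to 0.31 (Mrpl36), -0.14 to 0.34 (Mrpl4), -7.2e-05 to 0.10 (Mrpl55), -0.017 to 0.12 (Mrps17), -0.16 to 0.22 (Mrps28) and -0.15 to 0.096 (Mrps34). Members had about 45 to 727 counts per library. In the simulation changes of 1.5-fold were mostly missed with 3 against 2 libraries, though fewer genes changed there than were called in the data.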
